A study of Sus scrofa with 4 samples.

Results

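In tissues of Tibetan pigs (Sus scrofa), heart and lung shared 96 gene models that stood low in liver and kidney, out of 18367 models with a read in any of the 4 tissues. One RNA sequencing library was made from each of heart, lung, liver and kidney. The labels give no age, treatment or count of animals, and do not say whether the tissues came from 1 animal. All 4 libraries share breed and local origin. With 1 library per tissue, no difference below has a replicate check, and the intervals cover counting error only.

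The members were chosen from their RPKM values, which are reads per kilobase of model length scaled by library size. A member had at least 10 RPKM in both heart and lung. Its lower (RPKM + 1) of heart and lung was at least 5 times its higher (RPKM + 1) of liver and kidney. Before exclusions 111 models met these limits, and 15 were dropped. Of these, 9 stood at least 5-fold higher in heart than in every other library, and 3 did so in lung. For length, 2 were dropped at 250 bases or fewer, 1 of which is also among the 9, and 1 at 10000 bases or more. The last 1 lay on a scaffold left out by the rule. What remains is a choice on measured values, so the contrast of heart and lung with liver and kidney is a description and was not tested.

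Heart is a muscular pump lined throughout by endothelium. Lung is built of thin epithelium laid against a dense capillary bed, with smooth muscle around airways and vessels. Both organs contract or stretch with every cycle and are rich in vessels and elastic connective tissue. Liver and kidney are dominated by epithelial cells of metabolism and transport. Whether the members belong to any of these features could not be read. The identifiers carry no gene names, and 0 of the 18367 matched the tables of pig genes. For the same reason the markers of the labelled tissues were not checked, and no sequence is shown. In such bulk libraries, fewer cells of a type and less RNA per cell cannot be told apart.

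The libraries held 14062622 reads on models for heart and 8853076 for lung, but 5486480 for kidney and 4090775 for liver. A single read on a member of the median length, 1396.5 bases, adds 0.0509 RPKM in the heart library and 0.175 in the liver library, with 0.0809 for lung and 0.131 for kidney. The median number of reads per member was 1001.5 in heart and 549 in lung, but only 22 in kidney and 9 in liver. A member's level is thus well counted in the first pair of tissues and poorly counted in the second.

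The members were of middle to high level in heart and lung, which the minimum of 10 RPKM in part requires. In heart they ran from 10.6 to 1261 RPKM with a median of 40.9, and in lung from 10.4 to 811 RPKM with a median of 37.8. In the comparison set defined below, which has the same minimum, the medians were 26.7 RPKM in heart and 36.7 in lung. The members' median in lung was thus close to that of the comparison set. The median member stood at the 80.1 percentile of detected models (1 RPKM or more) in heart and at the 74.2 percentile in lung. At 100 RPKM or more there were 19 members in heart and 18 in lung, given without a like count in other models. In liver the members ran from 0 to 54.4 RPKM with a median of 1.68, and in kidney from 0 to 56.3 RPKM with a median of 2.47. The members took 1.46% of heart reads (95% exact interval 1.46 to 1.47) and 1.57% of lung reads (1.56 to 1.58). They took 0.0625% of liver reads (0.0601 to 0.0650) and 0.101% of kidney reads (0.0979 to 0.103). A few members carried much of this: the 5 of most reads held 39.5% of the members' heart reads and 46.3% of their lung reads.

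**Figure D1:**
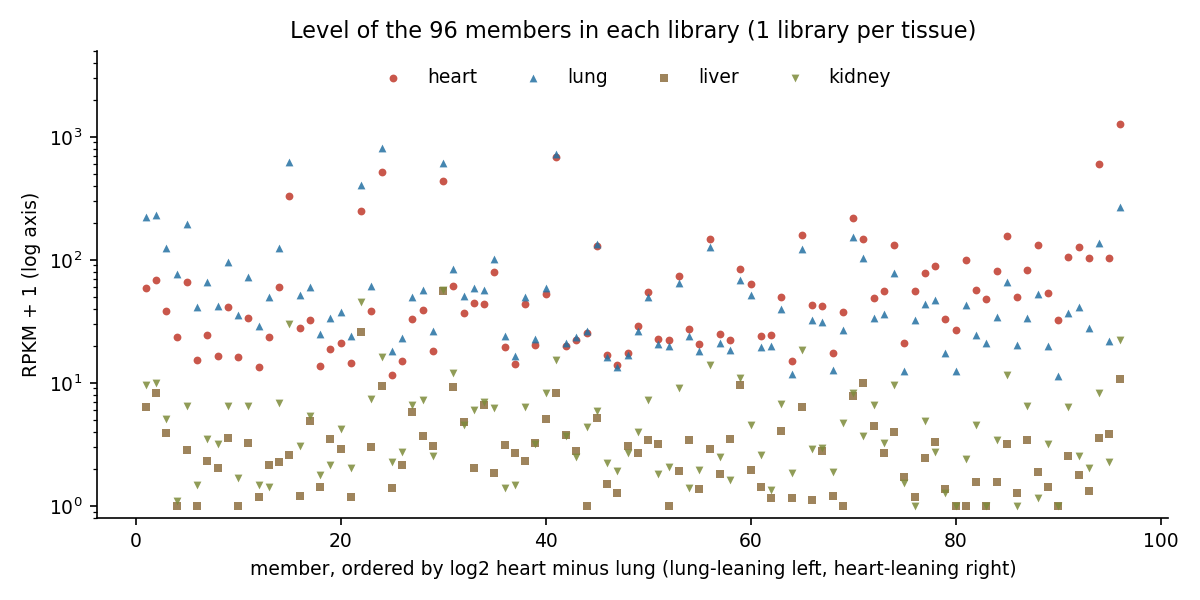
RPKM + 1 on a log axis for each of the 96 members in the heart, lung, liver and kidney libraries, 1 point per library, with members ordered by log2 heart minus lung. Heart and lung points lie above the liver and kidney points of the same member, as the choice of members requires, and cross near the middle of the order.

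The highest member by the lower of its heart and lung values was evm.model.scaffold16731.4, of 537 bases. It stood at 684 RPKM in heart (95% interval 665 to 703), 725 in lung (701 to 750), 7.28 in liver (4.16 to 11.8) and 14.3 in kidney (10.3 to 19.3). It also had the largest separation of any member, at 44.9-fold on the (RPKM + 1) scale. The second on both measures was evm.model.scaffold47830.3, of 2235 bases. That model stood at 515 RPKM in heart (507 to 523), 811 in lung (798 to 823), 8.42 in liver (6.65 to 10.5) and 15.1 in kidney (13.0 to 17.4), a 32.1-fold separation. Both were thus high in heart and lung alike, and both were still measurable in liver and kidney.

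Most members lay much nearer to the 5-fold limit. The separation was between 5- and 10-fold in 66 members, between 10- and 20-fold in 23 and 20-fold or more in 7, with a median of 7.27. The 2 members just inside the limit had separations of 5.01 and 5.04. The first of them had 32.0 RPKM in heart, 49.1 in lung, 4.78 in liver and 5.60 in kidney. The 2 models just outside had separations of 4.98 and 4.95, and the first of these had 19.1, 66.6, 2.50 and 3.05 RPKM in the same order. The separations just inside and just outside thus differed by little. A counting interval was taken on the RPKM ratio, lower of heart and lung over higher of liver and kidney. That interval lay wholly above 5 in 66 of the 96 members. The rule's limit of 5 applies to the separation instead, which is smaller than this ratio in the members. In evm.model.scaffold45533.15 the separation was 5.12 and the ratio 8.35 (5.45 to 13.5). The interval also rests on the values that chose the members, so the count of 66 is no check of the limit. The choice also moved with scaling: under median-ratio scaling, which divides each library by a factor from models seen in all 4, 77 models met the rule and 63 of them were among the 96.

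Heart and lung were compared within the members on log2(RPKM + 1), a difference that is positive where heart is higher. The comparison set was the 5447 models that met the same limits on heart and lung level, length and scaffold and lay within 5-fold between heart and lung, whatever their liver and kidney values. The members are 1.76% of that set and 0.625% of the 15357 models that reached 1 RPKM in some library, called all detected models below. Heart was at least 2-fold higher than lung in 17 members (17.7%), against 9.71% of the comparison set and 13.1% of all detected models. Lung was at least 2-fold higher in 14 members (14.6%), against 24.8% and 39.1%. The other 65 (67.7%) lay within 2-fold, close to the 65.5% of the comparison set.

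The median difference was 0.097 in the members, -0.37 in the comparison set and -0.66 over all detected models. Heart was the higher in 51 members (53.1%) and lung in 45. In the comparison set heart was the higher in 35.3%, and over all detected models in 30.3%. The counting interval of the heart over lung ratio lay above 1 in 42 members and below 1 in 39, and included 1 in 15. No like count of intervals is given for the comparison set. The lower of the pair entered the choice of members, so these shares are not independent of the rule. Median-ratio scaling raised heart minus lung by 0.58 in every model before the pseudocount. Of the same 96 members, 28 (29.2%) were then at least 2-fold higher in heart and 5 (5.21%) in lung. In the comparison set these were 1128 (20.7%) and 508 (9.33%). With members and comparison set chosen again on the scaled values, the medians were 0.11 and 0.0060, so the gap between them was narrower.

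**Figure D2:**
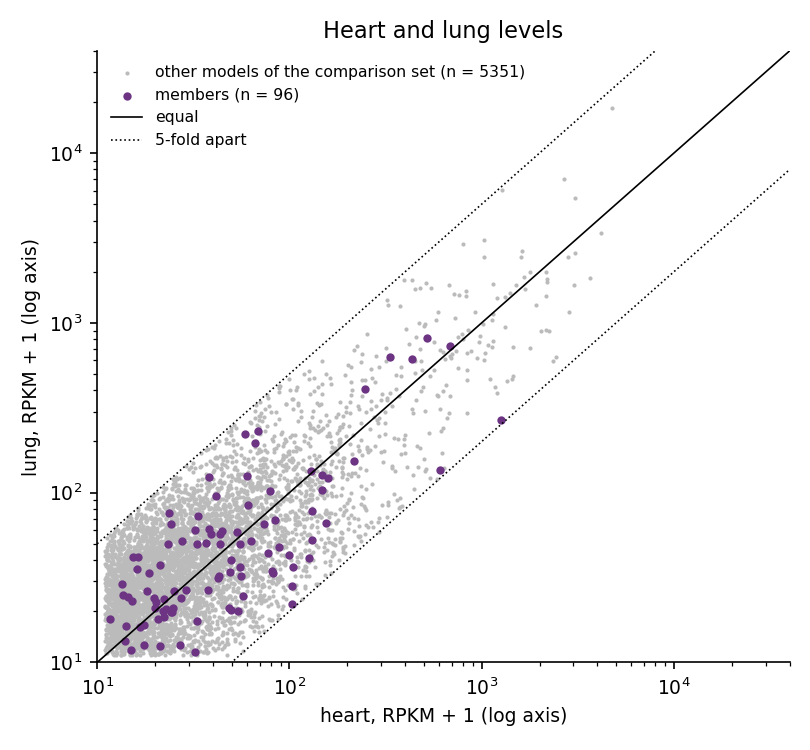
Heart against lung level (RPKM + 1, both axes log) for the 96 members and the other 5351 models of the comparison set, 1 point per model, with lines at equal level and at 5-fold apart. Members lie on each side of the line of equal level, 51 with heart higher and 45 with lung higher, and reach from the lowest levels up to 1261 RPKM in heart. Heart is higher in 53.1% of the members and in 35.0% of the other models.

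**Figure D3:**
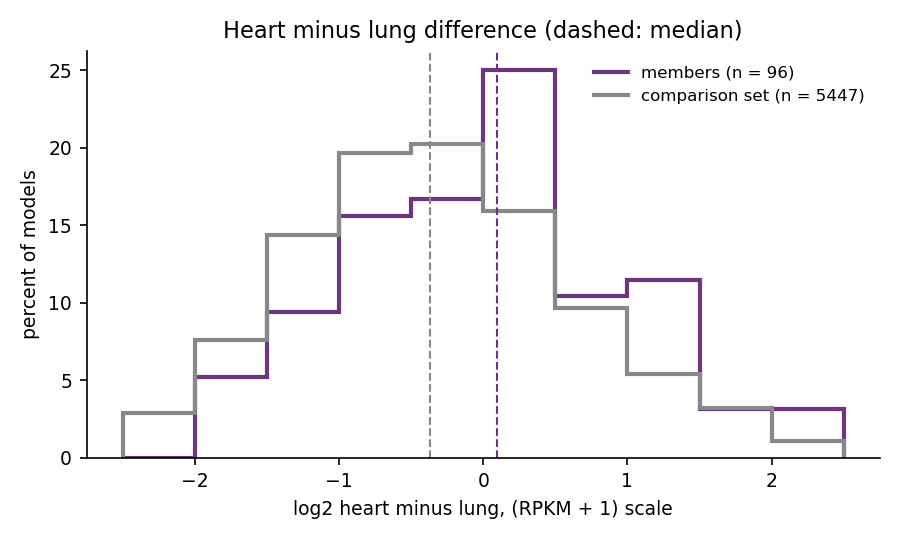
Percent of models by log2 heart minus lung on the (RPKM + 1) scale in bins of 0.5, for the 96 members and the 5447 models of the comparison set, with dashed lines at the medians. The members' median is 0.097 and that of the comparison set is -0.37.

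On the (RPKM + 1) scale the member that leaned most to heart was evm.model.scaffold4929.5, of 1062 bases. It stood at 1261 RPKM in heart (1243 to 1279), 266 in lung (255 to 276), 9.67 in liver (6.97 to 13.1) and 21.5 in kidney (17.9 to 25.6), a heart over lung RPKM ratio of 4.74 (4.55 to 4.95). Its heart value was the highest of any member, and the next was 684 RPKM. Second on that scale, and ahead by RPKM ratio, was evm.model.scaffold42214.4, of 1284 bases. Its heart value of 102 RPKM (97.6 to 107) stood over 21.0 in lung (18.4 to 23.9), 2.86 in liver (1.60 to 4.71) and 1.28 in kidney (0.584 to 2.43), a ratio of 4.86 (4.25 to 5.58). The counting interval of this second ratio reaches past 5. The limit of 5 at which a model was dropped as high in heart alone applies to (RPKM + 1), not to this ratio. The nearest dropped models stood just past it, at 5.25-fold higher in heart on one side and 5.79-fold higher in lung on the other, on the (RPKM + 1) scale.

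At the lung end stood evm.model.scaffold10371.5, of 1353 bases. It had 57.7 RPKM in heart (54.3 to 61.2), 221 in lung (212 to 229), 5.42 in liver (3.66 to 7.74) and 8.62 in kidney (6.64 to 11.01), and heart was 0.262 of lung (0.244 to 0.281). The next was the short model evm.model.scaffold28957.2, of 303 bases, with 67.4 RPKM in heart (59.8 to 75.6), 230 in lung (212 to 249), 7.26 in liver (3.32 to 13.8) and 9.02 in kidney (5.05 to 14.9). Its heart over lung ratio was 0.293 (0.254 to 0.338). All 4 of these models stayed on their side of equal level under each scaling, pseudocount and thinning tried.

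The 17 members at least 2-fold higher in heart, called heart-leaning here, had medians of 98.3 RPKM in heart, 32.8 in lung, 0.567 in liver and 1.53 in kidney. The 14 at least 2-fold higher in lung, called lung-leaning, had medians of 27.9, 73.4, 1.31 and 3.29 RPKM in the same order. The 65 members within 2-fold had 35.9, 33.0, 1.90 and 2.73 RPKM. The median separation from liver and kidney was 11.9-fold in the heart-leaning members, 8.17-fold in the lung-leaning ones and 6.99-fold in the rest. The separation chose the members and shares its heart and lung values with the lean, so nothing is read from this order. Of the members' heart reads, 28.1% fell on the heart-leaning members and 8.66% on the lung-leaning ones. Of their lung reads, 7.48% and 22.9% did.

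The 5-fold limits between heart and lung fix how far apart a member's levels in them can lie. Lung RPKM was between 20.6% and 382% of heart RPKM in the members, with a median of 93.2%. The 10 highest models enriched in heart alone, which by their own rule are at least 5-fold apart, stood in lung at a median of 0.0231% of their heart value, with a highest value of 4.23%. In the other direction the members' heart RPKM was at least 26.2% of lung RPKM. The 10 highest models enriched in lung alone stood in heart at a median of 0.619%, with a highest value of 14.5%. The rules for the members and for these models set the gap between them, so nothing is read from it.

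The low levels in liver and kidney were compared next. Kidney RPKM exceeded liver RPKM in 72 members (75%), against 90.4% of the comparison set and 80.5% of all detected models. Liver exceeded kidney in 21, and 3 had 0 reads in both. Kidney was at least 2-fold higher on the (RPKM + 1) scale in 28 members (29.2%), against 49.9% of the comparison set and 44.4% of all detected models. Liver was at least 2-fold higher in 4 members (4.17%), against 2.46% and 6.19%. The median of log2 kidney minus liver was 0.58 in the members, 1.00 in the comparison set and 0.87 over all detected models. Many of the members' values are near the pseudocount, which shrinks their differences. For the same 96 members, a pseudocount of 0.1 gave 43 at least 2-fold higher in kidney and 12 in liver, without a like count in the comparison set.

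These counts depended on the scaling. Median-ratio scaling lowered kidney minus liver by 1.04. Kidney was then the higher in 46 members (47.9%) and liver in 47, against 2766 (50.8%) and 2678 models of the comparison set. On that scale 9 members (9.38%) were at least 2-fold higher in kidney and 11 (11.5%) in liver. The shares were 12.6% and 9.42% in the comparison set and 18.4% and 13.3% over all detected models. With members chosen again on the scaled values, 11 of 77 were at least 2-fold higher in kidney and 4 in liver, with a median of 0.18. At the deposited scale, the counting interval of kidney over liver lay above 1 in 38 members, below 1 in 3 and included 1 in 55. No like count is given for the comparison set, so nothing particular to the members is read from it.

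**Figure D4:**
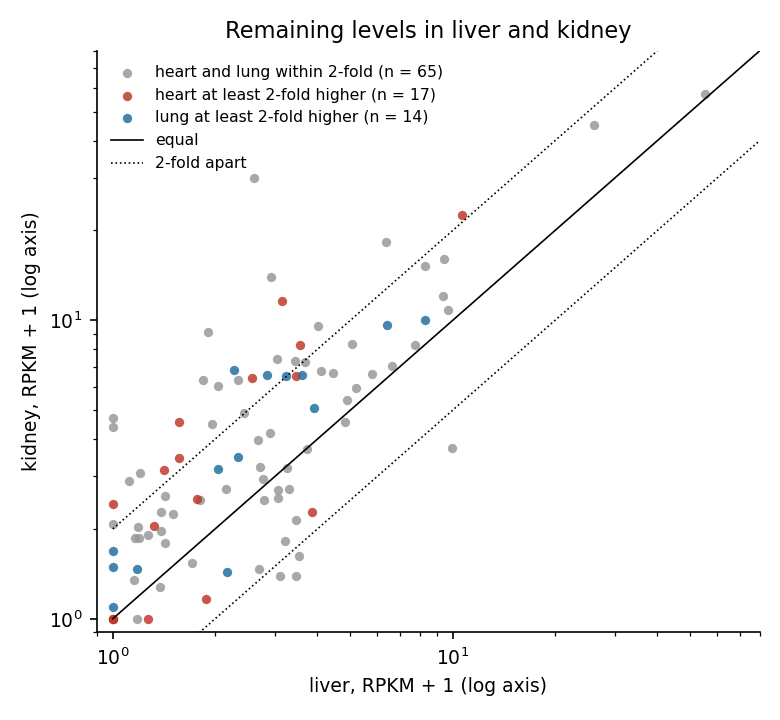
Kidney against liver level (RPKM + 1, both axes log) for the 96 members, coloured by their heart and lung balance, with lines at equal level and at 2-fold apart. Most points, 72 of 96, lie above the line of equal level, and members near 1 on both axes had few or no reads.

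The 2 members at each end of kidney over liver had counting intervals that excluded equal level. They were picked from the 96 by that same ratio, and the intervals are not adjusted for the choice. The widest lean to kidney on the (RPKM + 1) scale was that of evm.model.scaffold17527.20, of 759 bases, at 332 RPKM in heart (321 to 343), 625 in lung (607 to 645), 1.61 in liver (0.523 to 3.76) and 29.1 in kidney (24.1 to 34.7). Its kidney over liver ratio was 18.0 (7.52 to 56.6). For evm.model.scaffold30640.12, of 1278 bases, the values were 146 RPKM in heart (141 to 152), 126 in lung (120 to 133), 1.91 in liver (0.917 to 3.52) and 13.0 in kidney (10.4 to 15.9). That is a kidney over liver ratio of 6.79 (3.53 to 14.6). These values rest on 5 liver and 121 kidney reads in the first model and on 10 and 91 in the second.

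The opposite lean was led, on the (RPKM + 1) scale, by evm.model.scaffold23926.1, of 600 bases, at 147 RPKM in heart (139 to 155), 102 in lung (93.8 to 111), 8.96 in liver (5.62 to 13.6) and 2.73 in kidney (1.25 to 5.19). Its kidney over liver ratio was 0.305 (0.124 to 0.689). The next, evm.model.scaffold21935.21, of 1398 bases, had 26.1 RPKM in heart (23.9 to 28.5), 23.1 in lung (20.5 to 25.9), 2.45 in liver (1.34 to 4.11) and 0.391 in kidney (0.0807 to 1.14). Its ratio of 0.160 (0.0294 to 0.572) is the lower of the pair and rests on 3 kidney reads and 14 liver reads. The order of members by RPKM ratio differs from that on the (RPKM + 1) scale, where low values are drawn together.

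All 4 libraries had reads in 84 of the 96. Liver had 0 reads in 10 members (10.4%), against 0.312% of the comparison set and 10.8% of all detected models. Kidney had 0 reads in 5 members (5.21%), against 0.0918% and 4.70%, and 3 members had 0 reads in both. The comparison set includes the members. With the members left out, 0.131% of its models had 0 reads in liver and 0 models had 0 reads in kidney. A ceiling in liver and kidney is part of the rule, so these shares are a description. At 1 RPKM or more, 53 members were detected in liver and kidney, 19 in kidney only, 6 in liver only and 18 in neither. That is 61.5% of the members in liver, against 97.6% of the comparison set and 74.7% of all detected models, and 75% in kidney, against 99.5% and 86.0%. All 3 members with 0 reads in both were at least 2-fold higher in heart than in lung on the deposited scale. The longest of them, of 2262 bases, stood at 26.1 RPKM in heart and 11.6 in lung. Against a floor of 3 counts per library, its heart level was at least 80.4-fold higher than in liver and at least 108-fold higher than in kidney, and its lung level at least 35.7-fold and 47.9-fold higher. The others, of 426 and 465 bases, had 47.4 and 31.3 RPKM in heart and 19.9 and 10.4 RPKM in lung. For the shortest one, with 75 lung reads, the lung level was at least 11.6-fold higher than in liver and 15.5-fold higher than in kidney. For the one of 465 bases, with 43 lung reads, these bounds were 6.62-fold and 8.88-fold. Model length cancels in such a bound, which rests on the reads counted.

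Across the 96 members, which are not independent replicates and share the 4 libraries, the Spearman correlation of RPKM was 0.69 for heart and lung and 0.70 for liver and kidney. Lung and kidney had the highest value, 0.78, and heart and liver the lowest, 0.46. In the comparison set the order differed, with liver and kidney highest at 0.81 and lung and liver lowest at 0.50, and lung and kidney at 0.55. The rule ties the ceiling in liver and kidney to the level in heart and lung, so part of the members' values is built in.

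Members were close in length to the comparison set. They ran from 264 to 8658 bases with a median of 1396.5 and quartiles of 943.5 and 2365, against a median of 1332 and quartiles of 801 and 2231 in the comparison set. Lengths were multiples of 3 in 92 of the 96, or 95.8%, against 92.1%. With the members cut by length into 3 groups of 32, the median of log2 heart minus lung was 0.21 in the short group (264 to 1096 bases), 0.086 in the middle group (1107 to 2073) and -0.0070 in the long group (2112 to 8658). In the comparison set cut at the same lengths it was -0.18, -0.41 and -0.55. The members' medians thus lay above those of the comparison set in each group, and in both sets the median was lower at greater length on the deposited scale.

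Members were scattered over 92 scaffolds of the assembly the identifiers refer to. On 88 scaffolds there was 1 member, on 4 there were 2, and on 0 more than 2. Chromosomes are not given in the files, and the model number was taken as the order along a scaffold, which the files do not state. By that order 4 members (4.17%) stood next to another member, whereas 0.755% of all detected models and 0.771% of the comparison set had a member as neighbour. They form 2 pairs.

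One pair joins the highest member to its neighbour. Beside evm.model.scaffold16731.4, described above at 684 RPKM in heart and 725 in lung, evm.model.scaffold16731.3, of 813 bases, had 128 RPKM in heart (122 to 135), 134 in lung (125 to 142), 4.21 in liver (2.30 to 7.06) and 4.93 in kidney (3.09 to 7.47). Both had nearly even heart and lung levels, with heart over lung ratios of 0.942 (0.902 to 0.984) and 0.960 (0.884 to 1.04). The other pair, evm.model.scaffold47789.7 and evm.model.scaffold47789.8, was named because its count is small, after its values were seen. Its first model had 43.6 RPKM in heart, 58.5 in lung, 1.04 in liver and 5.03 in kidney. The second had 47.8, 33.0, 3.45 and 5.65 RPKM in the same order. Whether consecutive models are separate genes or pieces of 1 gene was not tested.

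The models next to a member were described by the same ratio. Of the 112 neighbours that reached 1 RPKM in some library and were not members themselves, 15 (13.4%) had a lower value of heart and lung at least 2-fold over the higher of liver and kidney. Of all 15261 detected models that are not members, these neighbours included, the share was 5.08%. The neighbours' median separation was 0.772 against 0.615, below 1 in both, so in most neighbours the lower of heart and lung did not exceed the higher of liver and kidney. Their median levels were 9.98 RPKM in heart, 16.4 in lung, 3.88 in liver and 7.45 in kidney, against 8.62, 14.3, 5.43 and 12.5 RPKM in the 15261 models. With members chosen again under median-ratio scaling the share was 16 of 95, or 16.8%, against 4.89%.

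**Figure D5:**
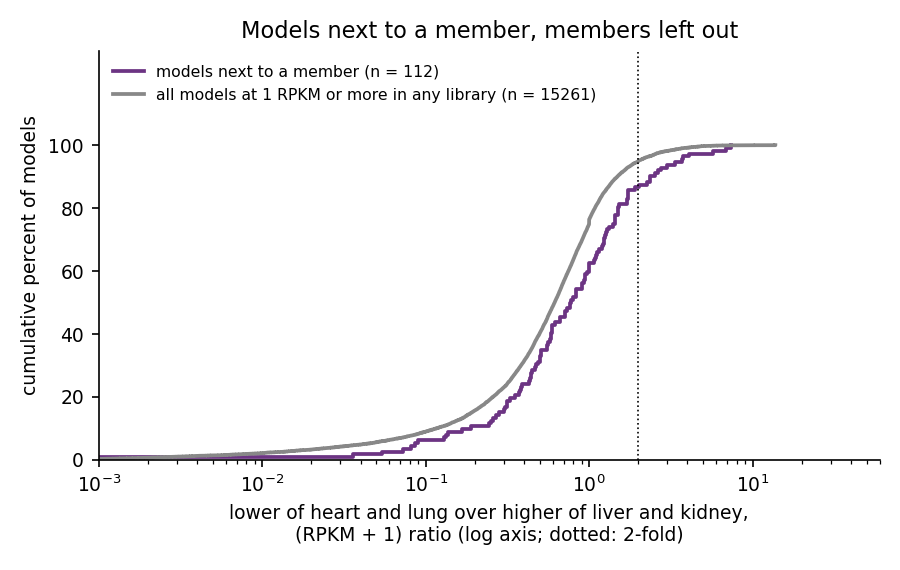
Cumulative percent of models by the ratio of the lower (RPKM + 1) of heart and lung to the higher of liver and kidney, on a log axis, for 112 models next to a member and for all 15261 detected models, members left out of both. The curve of the neighbours lies to the right, and at the dotted line of 2-fold 13.4% of neighbours and 5.08% of all these models remain above.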

How the data were processed

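Total RNA of heart, liver, lung and kidney was extracted with Trizol and made into TruSeq libraries, per the labels' protocols. TopHat, a spliced aligner, is named in the submitters' processing notes without a version. Not given in the sources used here are the read counter, its use of strand and of multiply matching reads, the build and the annotation. Near-identical models may share reads. The authors deposited a whole-read count and an RPKM per model, and per the file headers a length and a library total. The deposited RPKM equalled the count over length and total (relative tolerance 1e-12), and counts summed to the totals. Models missing from a table were taken as 0.

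Members, lists and rules were chosen with earlier results of these data known. No test was possible with 1 library per tissue. Folds are on the RPKM + 1 scale unless named as RPKM ratios, and that scale understates the change of low models. Intervals are exact at 95%: Poisson for levels, Clopper-Pearson for shares and ratios of 2 counts. Where a library had 0 reads, 3 counts in that library served as the floor. Since the reads carry no molecular identifiers, these limits hold for counting error and nothing else. Median-ratio factors, from 10247 models above 1 RPKM in all libraries, were 0.927 for heart, 1.38 for lung, 0.614 for liver and 1.27 for kidney. Named were the 2 members of highest lower value of heart and lung, the 2 at each end of heart over lung and of kidney over liver (the latter with 1 RPKM in either), the 2 of widest separation, and the highest consecutive pair. Alternatives changed scaling, pseudocount, fold, minimum level, missing models, depth, exclusions, split and distance. The rule was run on simulated Poisson counts from 1 mean profile for all tissues, with changes planted in some models. The intervals were run on Poisson draws. Neither simulation held other differences between tissues, so both check the calculation only. Scripts ran in Python 3.11.15 with numpy 2.4.6, scipy 1.17.1, pandas 2.3.3 and, for figures, matplotlib 3.10.9.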

Additional observations from a re-analysis of the deposited data

How the results depend on the processing

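No paired analysis was possible because a tissue has a single library, which also means that none could be left out. Members were chosen again under each alternative. Of 135 values of the group under alternatives, 78 stayed within their limit, 55 moved and 2 reversed. The limit was 1.5 times for counts and lengths and the counting interval for shares. For medians it was the typical counting error of a single member's ratio, which is wider than that of a median. By it the median kidney minus liver counted as unchanged at 0.18 under median-ratio scaling and 0.23 with a 10-fold minimum (from 0.58). The limit for shares is narrow, and the shares moved under every alternative in which they were compared. A median of the group was called reversed at any change of sign, whatever its size. The tally thus depends on these limits. The cause of a change was not tested where the alternative does not itself set it. Depth limits liver values most, where 1 read is 0.175 RPKM at the members' median length.

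Median-ratio scaling gave 0.996% of heart and 1.495% of lung reads on the members (from 1.46% and 1.57%), 11 higher in kidney than liver (from 28), 1 with 0 reads in both (from 3) and 2 next to each other (from 4). TPM-like scaling gave 1.93% and 2.08% of reads, 26 higher in lung than heart (from 14), 17 with 0 reads in liver (from 10), 8 in kidney (from 5) and 10 next to each other, with 141 members of which 96 were the main ones. A pseudocount of 0.1 gave 1.66% and 1.86% of reads, 22 higher in lung, 55 higher in kidney, 13 higher in liver (from 4) and a median heart minus lung of -0.040 (from 0.097). A 3-fold minimum gave 199 members, 2.42% and 2.91% of reads, 29 higher in lung, a median of -0.074, 75 higher in kidney, 7 higher in liver and 12 next to each other. A 10-fold minimum gave 32 members, 0.757% and 0.736% of reads, 11 higher in heart (from 17), 6 higher in lung, a median of 0.51, 9 higher in kidney, 2 higher in liver and 2 next to each other. A minimum of 1 RPKM gave 1.53% and 1.63% of reads, 19 with 0 reads in liver, 12 in kidney, 7 in both and 8 next to each other. Models listed in all 4 files gave 1.41% and 1.53% of reads and, by construction, 0 with 0 reads in liver, kidney or both. Thinning to the liver total gave 1.49% and 1.56% of reads, and keeping all 111 models gave 2.83% and 2.37% with 26 higher in heart. A 1.5-fold split gave 27 higher in lung, 45 higher in kidney and 10 higher in liver, and a 3-fold split gave 5 higher in heart, 4 higher in lung, 7 higher in kidney than liver and 0 the other way.

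Of 88 log2 ratios of named members, 66 stayed within counting error, 18 moved and 4 reversed, all 4 under median-ratio scaling. A change of sign was called reversed only where the main counting interval excluded equal level. Heart minus lung became 0.49 in evm.model.scaffold16731.4, and kidney minus liver became -0.070 in that model, -0.33 in evm.model.scaffold10371.5 and -0.19 in evm.model.scaffold47830.3. Sign also changed in ratios whose main interval included equal level. Under median-ratio scaling kidney minus liver became -0.68 in evm.model.scaffold16731.3 and -0.66 in evm.model.scaffold28957.2 (from 0.19 and 0.28). In evm.model.scaffold16731.3 heart minus lung became 0.51 under that scaling and 0.010 after thinning (from -0.059). Alternatives for models next to a member, and the pseudocount of 0.1 with the 96 members kept (43 higher in kidney and 12 in liver), were added after seeing the data. The count at 2-fold or more was 15 of 112 neighbours (13.4%) in the main setting, against a background share of 5.08%. It became 16 of 95 (16.8%) under median-ratio scaling and 15 of 112 (13.4%) after thinning. Under TPM-like scaling the count was 23 of 156 (14.7%), and with a pseudocount of 0.1 it was 34 of 146 (23.3%). The background shares in the same order were 4.89%, 5.2%, 6.19% and 7.7%.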
